A study of Canis lupus familiaris with 8 samples.

Results

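The immediate-early response (IER) genes IER2, IER3, IER5 and IER5L and the cysteine-serine-rich nuclear protein genes CSRNP1 and CSRNP2 were followed in stretched epithelial cells. These 6 genes were chosen by symbol from the 37952 genes of the count table, with earlier results of these data known. All 6 were detected in every well. Polyadenylated RNA had been sequenced from monolayers of MDCK GII, an epithelial line of dog kidney, kept on a collagen-coated elastic silicone membrane in full-serum medium. The control group was 4 wells without strain, and the stretch group was 4 wells whose membrane was pulled equally in both in-plane directions to 18% and held for 2 hours before lysis. Each group carried replicate numbers 1 to 4, and neither carried a genetic change or a drug. The wells were technical replicates of 1 cell line, spread at random over several devices, so p-values measure the spread between these wells. The study asks how tension on E-cadherin, the adhesion protein between epithelial cells, leads to EGFR and ERK signalling, and the comparison here asks whether these early-response transcripts differed after strain.

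Immediate-early genes are genes that a cell can transcribe soon after a stimulus without making new protein first. Many are switched on when ERK phosphorylates ternary complex factors bound with SRF at their promoters, and their transcripts are usually short-lived. IER2, IER5 and IER5L belong to one protein family with a shared N-terminal region, whereas IER3 resembles them in name and inducibility and not in sequence. CSRNP1 and CSRNP2 belong to a separate family of nuclear DNA-binding proteins with CSRNP3.

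Of the 6 genes, CSRNP1 was the only one in which every stretch well lay above every control well, and the only one that passed a test over all genes in any fit run here. It passed in 7 of 25 alternative fits and not in the edgeR fit without a block (adjusted p = 0.422), where no gene passed. Its normalised count, relative to the TMM-scaled library size, went from 36.1 ± 4.8 to 48.5 ± 4.75 CPM (mean ± SD, n = 4 each). It also rose in the model that pairs wells by replicate number, a pairing that the labels do not state. IER2, IER3, IER5 and CSRNP2 had means that were higher after stretch, and IER5L had a mean that was lower. None of these 5 passed after adjustment over all genes. In the fit with the replicate block, the unadjusted 95% interval of CSRNP2 was 0.01 to 0.38. The median log2 change of the 6 genes was 0.22, against -0.003 over all 14571 genes tested. It was 0.42 within replicates 1 and 2 alone and -0.02 within replicates 3 and 4 alone.

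The library totals ran from 27047358 to 32478887 counts per well, and all 6 genes passed the filter on low counts. All 9 epithelial markers examined were present at 1 CPM or more in both groups, with summed levels of 5059 to 5630 CPM in control wells and 5352 to 5440 CPM in stretch wells. The leukocyte markers PTPRC, CD3E and ITGAM and the fibroblast markers COL1A2, COL3A1, DCN and LUM had no counts in any well. Of the 7 fibroblast markers, PDGFRA alone reached 1 CPM, as did KDR of the 5 endothelial markers and CD14 of the 5 leukocyte markers. The summed fibroblast markers were 1.8 to 4.22 CPM in control and 2.92 to 3.88 CPM in stretch wells, the endothelial ones 1.54 to 2.3 and 1.33 to 2.37 CPM, and the leukocyte ones 5.76 to 6.72 and 4.97 to 6.59 CPM.

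The genes are dispersed over the dog genome, and the coordinates given here are those of the count table, which coincide with the RefSeq annotation of the assembly UU_Cfam_GSD_1.0. IER2 is a single exon of 1857 bases on chromosome 20 (49469195 to 49471051, minus strand). IER5L is also a single exon, of 2714 bases, on chromosome 9 (54597894 to 54600607, plus strand). IER5 on chromosome 7 (14423635 to 14425831, plus strand) is annotated as 2 exon blocks separated by only 2 bases. IER3 on chromosome 12 (667496 to 668784, minus strand) has 2 exons around a gap of 80 bases, and FLOT1 lies 317 bases away on the same strand. The CSRNP genes have more exons. CSRNP1 spans 13220 bases on chromosome 23 (9049815 to 9063034, minus strand) with 10 exon blocks that sum to 5033 bases. CSRNP2 spans 14288 bases on chromosome 27 (42893439 to 42907726, minus strand) with 7 exon blocks that sum to 3942 bases. CSRNP2 shares 137 exon bases with LOC106557897 on the opposite strand, so its count is uncertain because the strand setting of the counting is not given in the sources used here. The other 5 genes overlap no annotated gene.

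Levels can be compared between genes only per length, so counts were expressed as RPKM (TMM-scaled CPM divided by exon length in kilobases). IER3, which encodes a small stress-inducible protein that ERK phosphorylates and that affects cell survival, had the highest level, 55.9 ± 15.3 RPKM in control wells (SD, n = 4), above 88.4% of tested genes. IER2, which encodes a small nuclear protein, followed with 26.1 ± 6.88 RPKM. Its highest control well (32.7 RPKM) lay below the lowest control well of IER3 (40.9 RPKM). Control wells therefore held both transcripts above the median tested gene, which stood at 8.59 RPKM.

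IER5L, IER5 and CSRNP1 had control levels of 8.31 ± 2.96, 8.01 ± 0.983 and 7.18 ± 0.953 RPKM, and their wells overlapped. CSRNP2 was the lowest detected of the 6 at 3.65 ± 0.53 RPKM, and its highest control well (4.19 RPKM) lay below every control well of the other 5 genes. After stretch, the order among the middle genes was different. CSRNP1 stood at 9.63 ± 0.943, IER5 at 8.54 ± 0.965 and IER5L at 6.25 ± 1.21 RPKM, and the highest stretch well of IER5L (7.97 RPKM) lay below the lowest of CSRNP1 (8.63 RPKM). CSRNP1 and IER5 still overlapped after stretch. CSRNP3, the third gene of the CSRNP family, had no counts in any of the 8 wells.

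**Figure D1:**
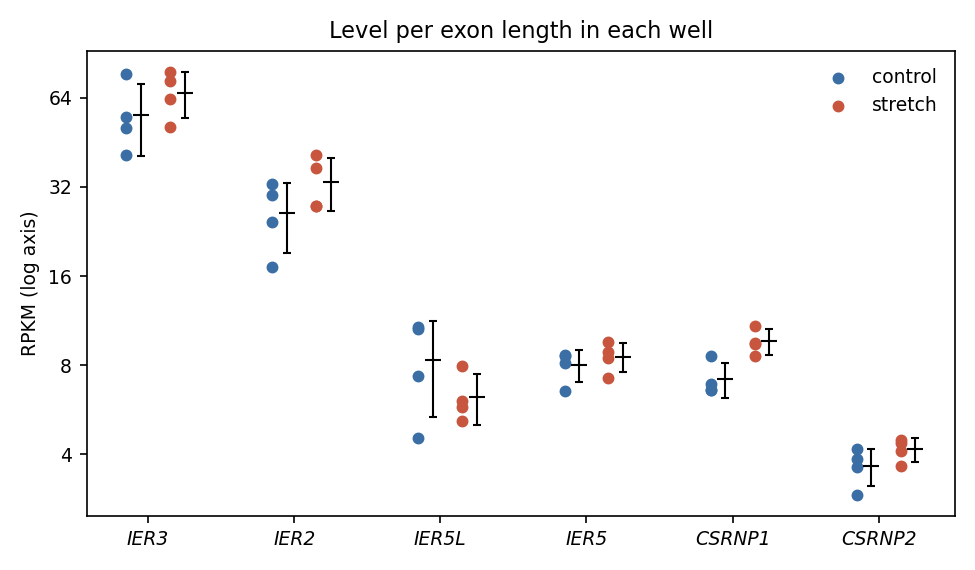
Level per exon length (RPKM, log axis) of the 6 genes in each control and stretch well, with the mean ± SD of 4 wells beside the points. IER3 and IER2 stand above the other genes in both groups, and CSRNP2 is the lowest; CSRNP1 and IER5L overlap in control wells and do not overlap after stretch.

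CSRNP1 encodes a nuclear transcription factor that was first described as a gene induced by AXIN1. Its control wells held 33.2, 33.3, 43.2 and 34.7 CPM for replicates 1 to 4, and its stretch wells held 43.4, 54.9, 47.6 and 48.0 CPM. All 4 stretch wells lay above all 4 control wells, though the lowest stretch well cleared the highest control well narrowly. Groups without overlap and with stretch higher were found for 1.30% of all tested genes. The log2 differences within same-numbered pairs were 0.39, 0.72, 0.14 and 0.47, so all 4 pairs were higher, as were all pairs in 8.45% of tested genes.

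Wells with equal replicate numbers deviated together from their group means for each of the 4 numbers, so a fit that blocks on the replicate number is given beside the unblocked one. Without the block, the log2 change of CSRNP1 was 0.42 ± 0.09 (SE; 95% interval 0.22 to 0.63), a 1.34-fold higher level. Its unadjusted p was 7.04e-04 and its adjusted p 0.422 (edgeR quasi-likelihood test, Benjamini-Hochberg over all genes). In this edgeR fit 0 of 6 genes were called, as were 0% of all tested genes; at an unadjusted p under 0.05 there were 1 of the 6, CSRNP1, and 3.97% of all tested genes. With the block, CSRNP1 rose by 0.43 ± 0.08 (95% interval 0.26 to 0.60) with an adjusted p of 0.0294 in edgeR's test, the only call among the 6, against 0.700% of all tested genes. DESeq2 called CSRNP1 both without the block (adjusted p = 0.0222, where 0.275% of genes were called) and with it (adjusted p = 1.74e-04, where 1.48% were called).

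The call on CSRNP1 varied with the test, the block and the wells included; limma-voom without a block did not make it (adjusted p = 0.393). Without control replicate 3, the control well with 43.2 CPM, it passed even without the block, at 0.52 on the log2 scale (edgeR, adjusted p = 0.0229). In the blocked fit it did not pass when the wells of replicate 1 or of replicate 4 were left out (edgeR, adjusted p = 0.164 and 0.211), although the log2 change stayed at 0.44 and 0.42. The estimate itself lay between 0.36 and 0.52 when each well was left out in turn.

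CSRNP2, the paralogue of CSRNP1, had 11.6, 16.5, 15.2 and 14.3 CPM in control replicates 1 to 4 and 16.2, 17.7, 17.3 and 14.4 CPM in stretch replicates 1 to 4. Control replicate 1 was the lowest well, and the remaining wells of both groups overlapped. All 4 pairs were higher, by log2 values of 0.49, 0.10, 0.19 and 0.01, the last of which is nearly no difference. The unblocked fit gave CSRNP2 a log2 change of 0.19 ± 0.11 and the blocked fit 0.19 ± 0.09 (edgeR, adjusted p = 0.999 and 0.513). Its 95% interval ran from -0.05 to 0.43 without the block and from 0.01 to 0.38 with it. Without control replicate 1 the unblocked log2 change of CSRNP2 was 0.10, and it was also 0.10 in the blocked fit without both wells of replicate 1.

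**Figure D2:**
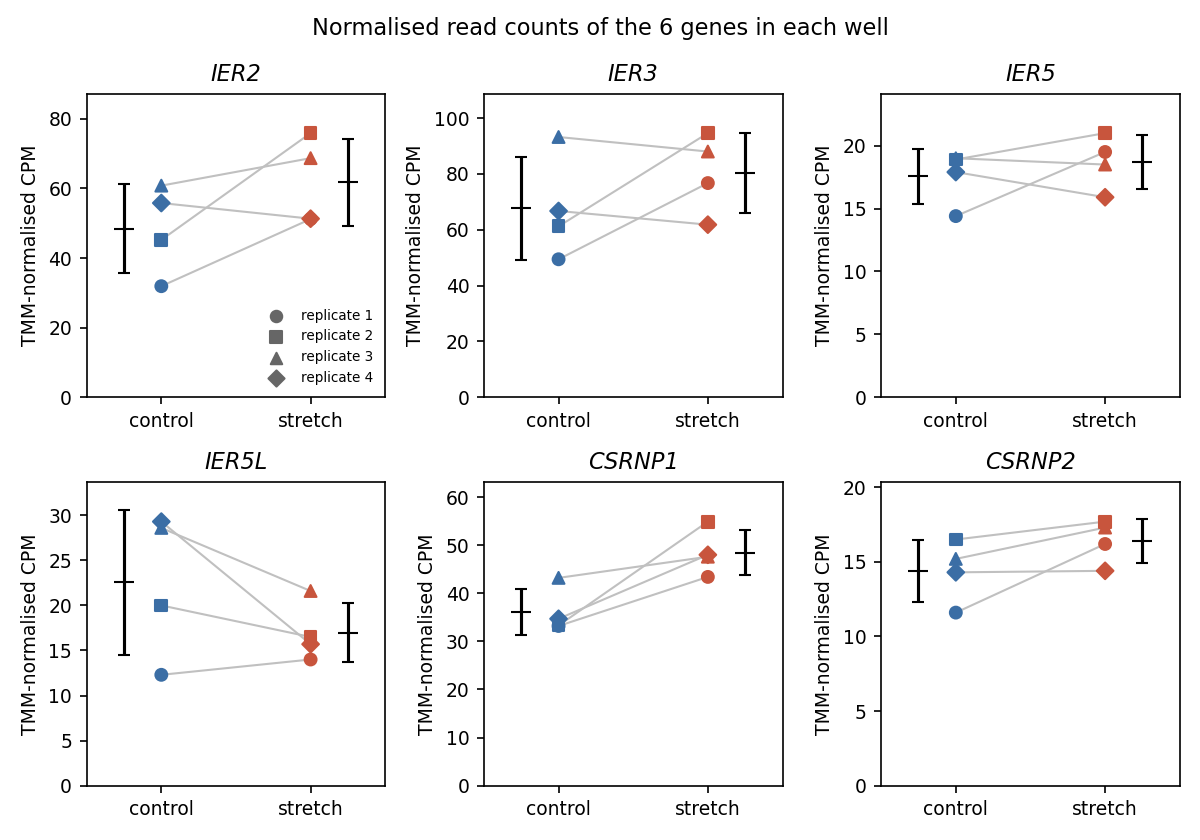
TMM-normalised CPM of each gene in each well, with a line joining control and stretch wells of equal replicate number and the mean ± SD (n = 4) at the sides. In CSRNP1 all 4 stretch wells (43.4 to 54.9 CPM) lie above the control wells (33.2 to 43.2 CPM); in the other 5 genes the groups overlap.

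IER2 had 31.9, 45.2, 60.8 and 55.8 CPM in control replicates 1 to 4. After stretch it had 51.2, 75.9, 68.7 and 51.3 CPM in replicates 1 to 4. Only 2 stretch wells, replicates 2 and 3, lay above every control well, and the control wells alone spread from 31.9 to 60.8 CPM. Mean CPM was 48.4 ± 12.8 in control and 61.8 ± 12.5 in stretch wells, and the log2 change was 0.35 ± 0.22 (95% interval -0.16 to 0.86; edgeR without the block, adjusted p = 0.999). With the block it was 0.36 ± 0.19 (edgeR, adjusted p = 0.756). The difference was higher in pairs 1 to 3, by 0.68, 0.75 and 0.18 on the log2 scale, and lower by -0.12 in pair 4. Without control replicate 1, the log2 change of IER2 was 0.20.

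IER3 showed a similar spread. Its control wells had 49.4, 61.2, 93.2 and 66.7 CPM and its stretch wells 76.7, 94.6, 88.0 and 61.8 CPM. Control replicate 3 lay above all but 1 of the stretch wells. Mean CPM was 67.6 ± 18.5 in control and 80.3 ± 14.4 in stretch wells, and IER3 differed by 0.25 ± 0.21 on the log2 scale (95% interval -0.23 to 0.73; edgeR, adjusted p = 0.999 without the block and 0.854 with it). The pairs were split: replicates 1 and 2 each differed by 0.63, and replicates 3 and 4 by -0.08 and -0.11. Without control replicate 1 the log2 change of IER3 was 0.13, and without control replicate 3 it was 0.44.

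IER5 encodes a protein that brings the phosphatase PP2A to targets such as the heat-shock factor HSF1. Its wells had 14.4, 18.9, 19.0 and 17.9 CPM in the control group and 19.5, 21.0, 18.5 and 15.9 CPM after stretch. The groups overlapped in part, with 2 stretch wells above every control well, and replicates 3 and 4 were lower after stretch. IER5 differed by 0.09 ± 0.11 on the log2 scale, the smallest of the 6 in size, within a 95% interval from -0.14 to 0.32 (edgeR, adjusted p = 0.999 without the block and 0.881 with it).

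IER5L, the closest relative of IER5 by name, was the only one of the 6 with a lower mean. Its control wells had 12.3, 20.0, 28.6 and 29.3 CPM, the widest relative spread of the 6 genes (an SD of 35.6% of the mean). Its stretch wells had 14.0, 16.5, 21.6 and 15.7 CPM. Control replicate 1 was below every stretch well, whereas control replicates 3 and 4 were above every stretch well. Pair 1 was higher by 0.19, and pairs 2 to 4 were lower, at -0.28, -0.40 and -0.90 on the log2 scale. Unblocked, IER5L differed by -0.41 ± 0.27 on the log2 scale (95% interval -1.03 to 0.20; edgeR, adjusted p = 0.999), and blocked by -0.37 ± 0.17 (edgeR, adjusted p = 0.632). It was -0.61 without control replicate 1 and -0.26 without control replicate 4.

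**Figure D3:**
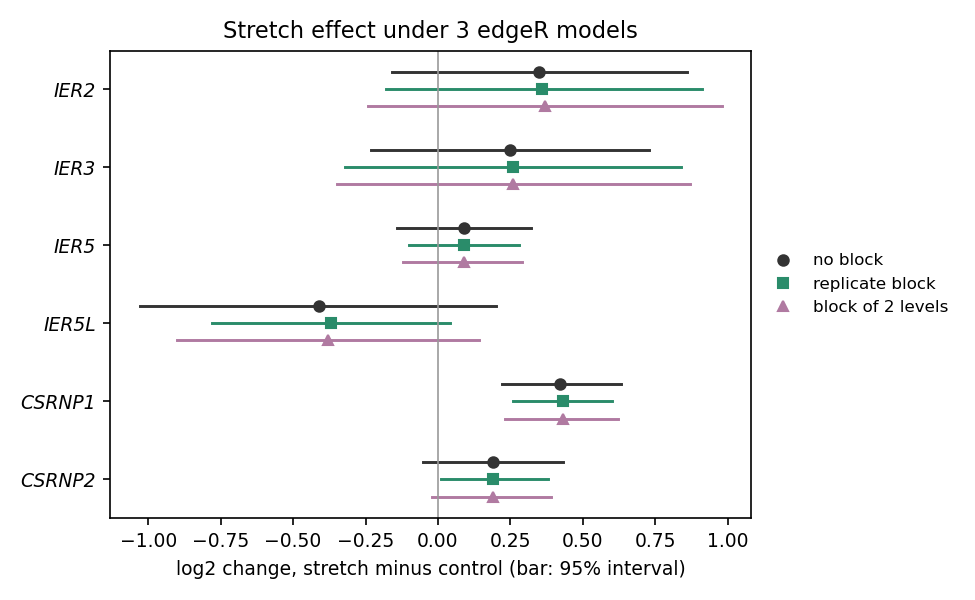
Log2 change (stretch minus control) of each gene in edgeR fits with no block, with the replicate number as a block, and with a block of 2 levels; bars are 95% intervals of the single estimate. The intervals of CSRNP1 lie above 0 in all 3 fits (0.22 to 0.63 without a block), and those of IER2, IER3, IER5 and IER5L include 0.

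Control replicate 1 was the lowest control well for 6 of the 6 genes. It was also the lowest for 22 of 35 other immediate-early genes and for 26.3% of all tested genes. Its library held 27208551 counts, the fewest of the control wells, but the smallest library of all was a stretch well, with 27047358. A part of library size in these levels was not tested. The log2 changes without control replicate 1 were 0.20 for IER2, 0.13 for IER3, 0.01 for IER5 and 0.10 for CSRNP2. With all wells they were 0.35, 0.25, 0.09 and 0.19. Leaving out the lowest control well makes a rise smaller by construction. Leaving out stretch replicate 2 instead gave 0.24, 0.16, 0.03 and 0.15 for the same genes. The CSRNP1 estimate without control replicate 1 was 0.39.

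The replicate numbers fell into a division of 1 and 2 against 3 and 4, which is not in the labels and was seen in an earlier analysis of these data. Within replicates 1 and 2 (2 wells against 2), the log2 changes were 0.71 for IER2, 0.63 for IER3, 0.27 for IER5 and 0.56 for CSRNP1. Within replicates 3 and 4, they were 0.05, -0.09, -0.10 and 0.30 for the same genes. IER5L had -0.09 in the first set and -0.63 in the second, and CSRNP2 had 0.27 and 0.11. The estimate was thus lower in replicates 3 and 4 than in replicates 1 and 2 for all 6 genes. The matching share of all tested genes is not given here. This was not particular to the 6 genes, as the median of the immediate-early list described below was also lower, at 0.30 against 0.48.

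CSRNP1 passed within replicates 1 and 2 (edgeR, adjusted p = 0.0113, where 0.348% of genes were called) and not within replicates 3 and 4 (edgeR, adjusted p = 0.317, where 0.169% of genes were called). IER5L in replicates 3 and 4 had an adjusted p of 0.0874 in edgeR's test. The difference in effect between the sets was tested as an interaction, and it passed for none of the 6 genes in edgeR; the smallest unadjusted p was 0.0395, for IER5 (adjusted 0.837). With a block of only these 2 levels, CSRNP1 had a log2 change of 0.43 and an adjusted p of 0.0697 in edgeR's test, and 0 of the 6 genes passed, against 0.398% of all tested genes.

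The levels behind these changes differed between the sets in both groups. Mean control levels of IER2 were 38.6 CPM in replicates 1 and 2 and 58.3 CPM in replicates 3 and 4, while its stretch levels were 63.5 and 60.0 CPM. For IER3 the control means were 55.3 and 80.0 CPM and the stretch means 85.7 and 74.9 CPM. For IER5L the control means were 16.2 and 29.0 CPM, against stretch means of 15.3 and 18.7 CPM. In these 3 genes the control means differed more between the sets than the stretch means did. In IER5 the control means were 16.7 and 18.5 CPM and the stretch means 20.2 and 17.2 CPM, and in CSRNP2 they were 14.0 and 14.7 CPM and 17.0 and 15.9 CPM, with the larger difference among stretch wells. CSRNP1 had 33.2 and 39.0 CPM in control and 49.2 and 47.8 CPM in stretch wells, with the larger difference among control wells.

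**Figure D4:**
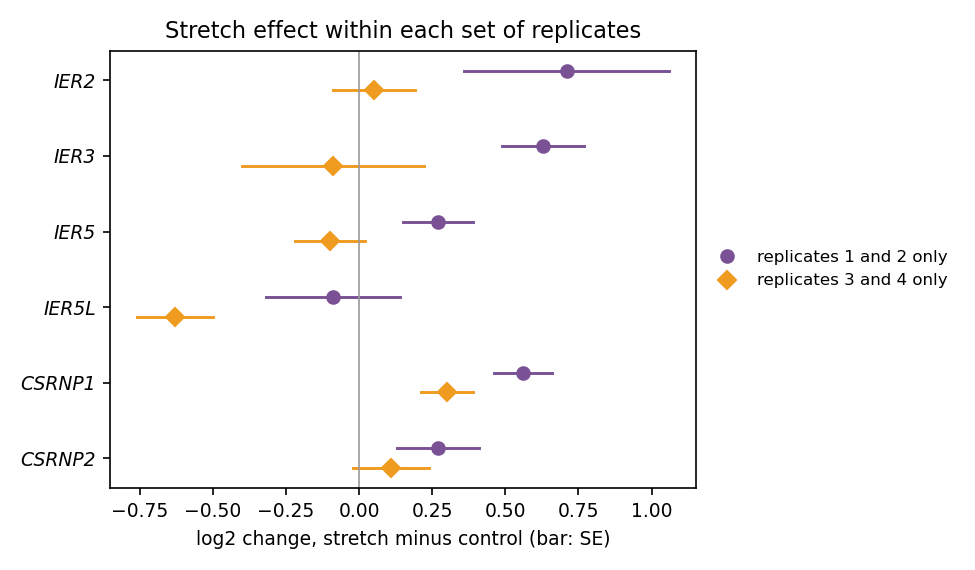
Log2 change (stretch minus control) of each gene fitted within replicates 1 and 2 only and within replicates 3 and 4 only (2 wells against 2); bars are standard errors. CSRNP1 is above 0 in both sets (0.56 and 0.30), IER2 and IER3 are near 0 in the second set (0.05 and -0.09), and IER5L is lower mainly in the second (-0.63).

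Beside the 6 genes, a list of 36 other immediate-early genes was examined, chosen with earlier results of these data known. Of these, 35 were tested. Their median log2 change was 0.42 without the block, and 32 of 35 were above 0, against 48.2% of all tested genes; among the 6 genes here 5 were above 0. With the block, 6 of the 35 rose in edgeR's test and 0 fell, where 0.528% of all tested genes were called higher and 0.172% lower. These were NR4A3 (log2 change 1.5), BTG2 (0.71), ATF3 (0.59), EGR1 (0.42), KLF6 (0.32) and TRIB1 (0.28). With the block of 2 levels NR4A3, ATF3 and TRIB1 passed, and BTG2, EGR1 and KLF6 did not (edgeR, adjusted p = 0.338, 0.0668 and 0.134). The 6 list genes called with the replicate block encode an orphan nuclear receptor, an antiproliferative cofactor, a stress-inducible bZIP factor, 2 zinc-finger transcription factors and a pseudokinase, in that order. Without the block 0 of the 35 were called in edgeR, and 19 had an unadjusted p under 0.05, all of them higher (2.22% of all tested genes were). DESeq2 without the block called 7, against 0.275% of all tested genes. In 13 of the 35 every stretch well lay above every control well, compared with 1 of the 6 genes here and 1.30% of all tested genes. The 0.42 of CSRNP1 thus equalled the list's median, and the values of IER2, IER3, IER5, IER5L and CSRNP2 lay below it.

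**Figure D5:**
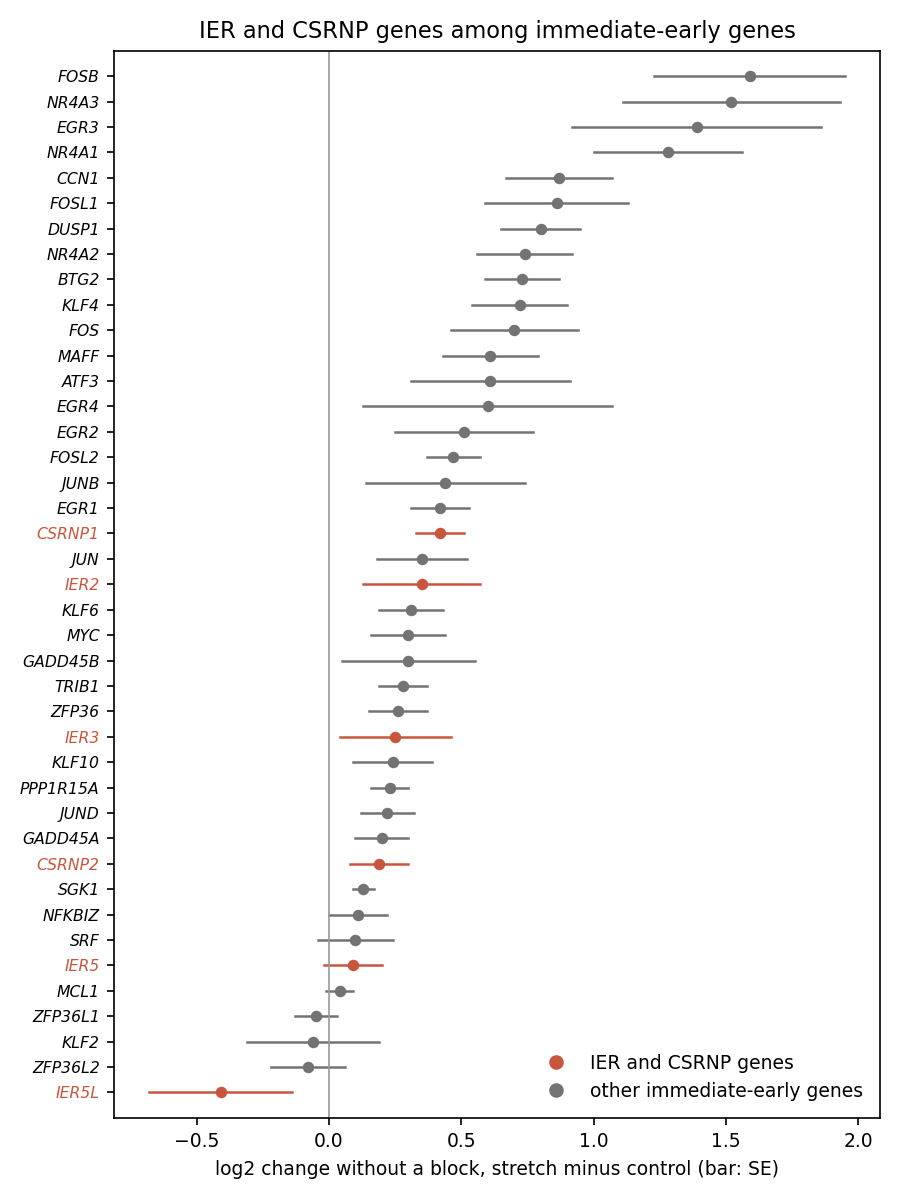
Log2 change without a block (stretch minus control; bars are standard errors) of the 6 genes, in red, ranked with 35 other immediate-early genes, in grey. CSRNP1 (0.42) stands mid-list at the level of EGR1, and IER5L (-0.41) is at the bottom.

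Other lists cover proteins that the IER proteins act with or that act on their genes. HSF1 and chaperone genes, which IER5 is known to affect through HSF1, had a median log2 change of 0.00 over 13 genes, with values from -0.05 to 0.13. None of them passed in edgeR with or without the block, and none had an unadjusted p under 0.05 without it. DNAJB1, a co-chaperone and HSF1 target, went from 50.6 ± 6.66 to 55.5 ± 4.44 CPM; HSPB1, a small heat-shock protein, had 0.13 and HSPH1, a chaperone of the HSP110 group, had -0.05 on the log2 scale. Subunits of PP2A, the phosphatase with which IER proteins interact, had a median of 0.02 over 11 tested of 13 listed genes. None passed in edgeR with or without the block. PPP2R5D, a regulatory subunit, had the smallest unadjusted p of this list, 0.0435 (log2 change -0.14), followed by PPP2R5B (0.13) and the catalytic subunit gene PPP2CA (0.03); PPP2R5D shares 119 exon bases with a gene on the opposite strand.

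The genes leading from EGFR through RAS, RAF and ERK to SRF had a median of -0.01 over 18 genes, with values from -0.06 to 0.10, and none passed in edgeR with or without the block or had an unadjusted p under 0.05 without it. EGFR was at 24.1 ± 1.99 CPM in control and 24.6 ± 1.19 CPM in stretch wells. SRF, the transcription factor at the promoters of many early-response genes, was at 34.2 ± 5.78 and 36.6 ± 5.64 CPM, and 324 of its exon bases overlap a gene on the opposite strand. The smallest unadjusted p of this list belonged to MRTFB, ELK1 and NRAS, with log2 changes of -0.05, 0.05 and -0.04.

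The genes most like each of the 6 were sought among 13135 genes with a mean of at least 1 CPM, by the Pearson r of log2 CPM over the 8 wells. The wells share group and replicate set, so these values are descriptions. The 3 genes most like CSRNP1 were FOSL2 (r = 0.995), NR4A1 (0.977) and DUSP1 (0.972), a subunit of AP-1, an orphan nuclear receptor and a phosphatase that acts on MAP kinases. All 3 are on the immediate-early list, and their log2 changes without the block were 0.47, 1.28 and 0.80. FOSL2 and DUSP1 each share exon bases with a gene on the opposite strand, 108 and 155 bases respectively.

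IER2 was most like LOC102154711 (r = 0.980), BMP4 (0.979), which encodes a secreted growth factor, and KLF10 (0.967), a zinc-finger factor of the immediate-early list. IER3 was most like LOC106557526 (0.950), KLF10 (0.936) and DTX2 (0.935), and its r with IER2 was 0.915. IER5 was most like FANCE (0.953), GALNT12 (0.952) and LOC119876763 (0.930). CSRNP2 was most like METRNL (0.959), GALNT12 (0.940) and MRPL39 (0.919). IER5L stood apart from the other 5, with r from -0.0884 with CSRNP1 to 0.486 with IER2, and was most like TOB2 (0.980), GLYR1 (0.976) and CAMSAP1 (0.975). In bulk RNA, fewer cells that express a gene and less RNA per cell cannot be told apart for any of these values.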

How the data were processed

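The authors deposited 1 table of raw read counts, summed over the exons of each gene, with a column per library (8 columns, matched to samples by library name; 0 columns belonged to no sample). Per the submitters' processing notes, FastQC 0.11.8, Trim Galore 0.6.5, STAR 2.7.3a and featureCounts were used; the strand and multi-mapping settings are not given in the sources used here. Of the table's symbols, 37291 matched RefSeq's UU_Cfam_GSD_1.0, with identical start and end for 37291. The summed exon length deposited by the authors, in bases and from another column of the table, gave RPKM.

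Counts were tested in R 4.3.3 with edgeR 4.0.16 (glmQLFit, robust, and glmQLFTest; TMM; filterByExpr with a minimum count of 10 and total of 15), which kept 14571 genes, at an adjusted p under 0.05. The model had a stretch term without a block; the same-numbered wells correlated in their deviations from group means by 0.108 to 0.328, so the replicate block is printed beside it. Library totals of 27047358 to 32478887 counts set the precision; intervals are 95% from edgeR's degrees of freedom. Alternatives used DESeq2 1.42.0 and limma 3.58.1, other scalings, filters and blocks, and omitted wells. The fit was tested on simulated data. All 6 genes were named in full, list genes when past the threshold with the block or otherwise by the 3 smallest p, and like genes by the 3 highest r (log2 CPM, prior count 2). PPP2R5D, EGFR and SRF were singled out besides. The members and lists were chosen with earlier results of these data known. No sequences were used.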

Additional observations from a re-analysis of the deposited data

Results flagged for a closer look

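Dixon's ratio of gap to range was taken for 12 groups of 4 wells (6 genes, control and stretch), and 1 exceeded the 95% level. It was CSRNP1 in the control group, where replicate 3 stood at 43.2 CPM and the other wells between 33.2 and 34.7 CPM. Chance flags about 0.6 of 12 groups at this level. The same well had the highest control level for IER2 (60.8 CPM), IER3 (93.2 CPM) and IER5 (19.0 CPM) too, without being far from the others by this ratio.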

How the results depend on the processing

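Without a block, CSRNP1 had log2 changes of 0.36 to 0.52 when single wells were left out, and 0 to 1 of the 6 genes were called; the call came without control replicate 3, where 0.0814% of all tested genes were called. The immediate-early list had 0 to 3 calls in the same fits, where at most 0.0814% of all tested genes were called. With the replicate block, CSRNP1 had 0.43 and 1 of the 6 genes and 6 of the list were called, against 0.700% of all tested genes. The block changed no other call among the 6. Leaving out whole pairs with the replicate block gave CSRNP1 0.33 without replicate 2 and 0.53 without replicate 3, with 1 gene called in each. The list then had 6, 6, 14 and 4 calls without replicates 1 to 4, where 0.293%, 0.458%, 1.27% and 0.507% of all tested genes were called. DESeq2 gave CSRNP1 0.43 without and with the replicate block, with 1 gene called in each. It called 7 and 11 list genes, against 0.275% and 1.48% of all genes given an adjusted p. The block of 2 levels called 3 list genes and 0.398% of all tested genes. Within replicates 1 and 2, CSRNP1 had 0.56, and 1 gene and 4 of the list were called, against 0.348% of all tested genes. Within replicates 3 and 4, 3 of the list were called, against 0.169%. Signs turned for IER5 (-0.02 with the replicate block and without replicate 1, and -0.10 within replicates 3 and 4) and IER3 (-0.09 within replicates 3 and 4); the cause was not tested. Under limma-voom, the other scalings and the other count filters, 0 of the 6 and 0 of the list were called and no sign turned among the 6 genes; scaling moved the median of all tested genes no further than from -0.003 to 0.001. All 72 recomputed RPKM levels stayed within 1 SD of the reported mean. For the levels without 1 well this was certain beforehand, as leaving out 1 of 4 wells cannot move a mean by 1 SD. With 4 wells a group, the 95% intervals of IER2, IER3 and IER5L span about 1 log2 unit.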

Other observations

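Ratios between 2 of the 6 genes within a well do not depend on the scaling of libraries, and all 15 were computed after the values had been seen. The ratio of IER2 to IER5L in CPM was 2.60, 2.26, 2.12 and 1.91 in control replicates 1 to 4 and 3.65, 4.61, 3.17 and 3.26 in stretch replicates 1 to 4. The groups did not overlap, and the mean ratio went from 2.22 ± 0.29 to 3.67 ± 0.66 (SD, 4 wells each). A two-sided exact permutation test gave p = 0.0286, the smallest that 4 against 4 wells can give, and 0.257 when adjusted over 15 ratios. It was higher in 4 of 4 pairs, by 0.49 to 1.03 on the log2 scale, in both sets of replicates.

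IER5L was lower relative to each of the other 5 genes in 4 of 4 pairs, including pair 1, where its own level was higher after stretch. Relative to IER5, the family member most like it by name, the 4 log2 differences of IER5 over IER5L were 0.24, 0.43, 0.37 and 0.73 (two-sided exact permutation p = 0.171, adjusted over 15 ratios 0.286; n = 4 each). The exact test over unpaired wells did not pass after adjustment for any ratio. The 5 ratios share the IER5L values, so they are not 5 separate observations. By contrast, CSRNP1 over CSRNP2 was higher in 2 of 4 pairs and lower in the other 2, with mean ratios of 2.54 ± 0.40 in control and 2.97 ± 0.31 in stretch wells (n = 4 each).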
